A study of Nothobranchius furzeri with 15 samples.

Results

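The comparison described here sets skin exposed to 15 pM rotenone against skin given the solvent DMSO, in 10 of the 15 RNA-seq samples of the series. It holds all 5 samples whose perturbation label reads Rotenone 15 pM and all 5 labelled DMSO, and it covers every gene that could be tested. The fish were turquoise killifish (Nothobranchius furzeri), an annual fish with a very short life, of the inbred GRZ strain. Every sample came from a male at 9 weeks of age. The other 5 samples of the series had 150 pM and entered only 1 alternative fit and the recovery of gene lengths. The sources used here do not give the length or route of the exposure, and a number in a label does not tell whether each sample was another fish, so p-values measure only the spread between these samples.

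Rotenone blocks complex I, the large enzyme of the inner mitochondrial membrane that passes electrons from NADH to ubiquinone and pumps protons as it does so. Cells with less complex I activity make less ATP by respiration, keep more NADH, and can signal this state to the nucleus. Skin is a mixture of epidermal cells, fibroblasts, pigment cells, vessels and immune cells. In such bulk tissue, fewer cells of a type and less RNA per cell cannot be told apart. None of the 26739 gene identifiers of the count table matched the RefSeq table of names, so genes are given here by identifier, and the markers of skin and the complex I subunits were not analysed.

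Total counts per sample were 21857670 to 25656954 at 15 pM and 24187377 to 27662039 in DMSO. Counts were divided among genes more unevenly from sample to sample at 15 pM, where the number of genes that together held the first 50% of a sample's counts was 107 to 447, against 136 to 263 in DMSO. Of 9 such sample properties none passed the threshold in the exact two-sided permutation test of the difference of means (smallest p = 0.0952, for the total count, adjusted p = 0.662). The smallest p this test can give for 5 against 5 samples is 0.00794. After adjustment over 9 properties, a single differing property could therefore not have passed. Since the test compares means, the more uneven division of counts at 15 pM was not tested. Levels below are in CPM, a gene's count relative to a common library total after correction for composition by the TMM method, whose factors were 0.812 to 1.193 at 15 pM and 0.9526 to 1.137 in DMSO.

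By edgeR, the genes called different between low-dose rotenone skin and solvent skin were few and mostly moderate in change, more of them raised than lowered. In these 10 samples 86 genes were called changed at an adjusted p under 0.05 by edgeR's quasi-likelihood test, 0.484% of the 17766 genes tested. Of these, 57 genes rose (0.321% of those tested) and 29 fell (0.163%). Many calls lay near the threshold. The edgeR adjusted p had a median of 0.0365 and an upper quartile of 0.0480 in both the raised and the lowered genes. Before the adjustment 3083 genes had a p under 0.05 (17.4%), 1656 of them higher and 1427 lower at 15 pM. The fold changes of all tested genes were centred, with 8869 genes higher and 8897 lower at 15 pM and a median log2 fold change of -0.00086.

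The number of calls and their split by direction moved with single samples. Leaving out 15 pM replicate 1, 2 or 3 gave 20, 48 and 14 calls, and leaving out 15 pM replicate 4 gave 494. Leaving out DMSO replicate 1, 2, 3, 4 or 5 gave 18, 13, 11, 4 and 17. Raised genes outnumbered lowered ones in each of the 5 fits without a 15 pM sample, while 2 rose and 2 fell without DMSO replicate 4, and 8 rose and 9 fell without DMSO replicate 5. By DESeq2 962 genes were called and by limma-voom with sample weights 1696, among which raised genes made up 54.8% and 48.5%, against 66.3% here. Without both 15 pM libraries in which the genes with the most reads held a low share of the counts, replicates 1 and 4, 278 genes were called, 209 raised and 69 lowered.

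By its estimate, the typical raised gene a little more than doubled. Sizes of called genes come from the same samples that picked them, which favours large estimates. Among the 57 raised genes the log2 fold change was 1.22 in the median, with quartiles of 0.93 and 1.76. The 29 lowered genes had a median of -1.07, with quartiles of -1.28 and -0.79. All called changes were over 0.5 on the log2 scale, where 23.4% of all tested genes lay by the size of their change alone. Beyond 1 on the log2 scale there were 40 raised and 16 lowered genes, and beyond 2 there were 10 raised and 2 lowered genes.

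The largest called changes were increases. Beyond 4 on the log2 scale there were 7 raised genes and 0 lowered ones, with log2 fold changes of 4.40 to 7.81. Such calls numbered 2 without any one of the DMSO samples, 3 in the fits that left out 15 pM replicate 1 or 3, 4 when replicate 5 at 15 pM was left out, and 7 for 15 pM replicates 2 and 4. Calls raised by over 2 likewise numbered 2 to 4 without a DMSO sample, 3 without 15 pM replicate 1, 4 without 15 pM replicate 3 and 20 without 15 pM replicate 4. Over all tested genes, called or not, 10 were higher and 3 were lower by as much, and 62 were higher and 143 lower by over 2, so the larger estimates of uncalled genes leaned to decreases. A test against a change of 1.5 fold (edgeR's glmTreat) called 3 genes, 0.0169% of those tested, 2 raised and 1 lowered. For the other called genes the test did not show that the change was larger than 1.5 fold.

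**Figure D1:**
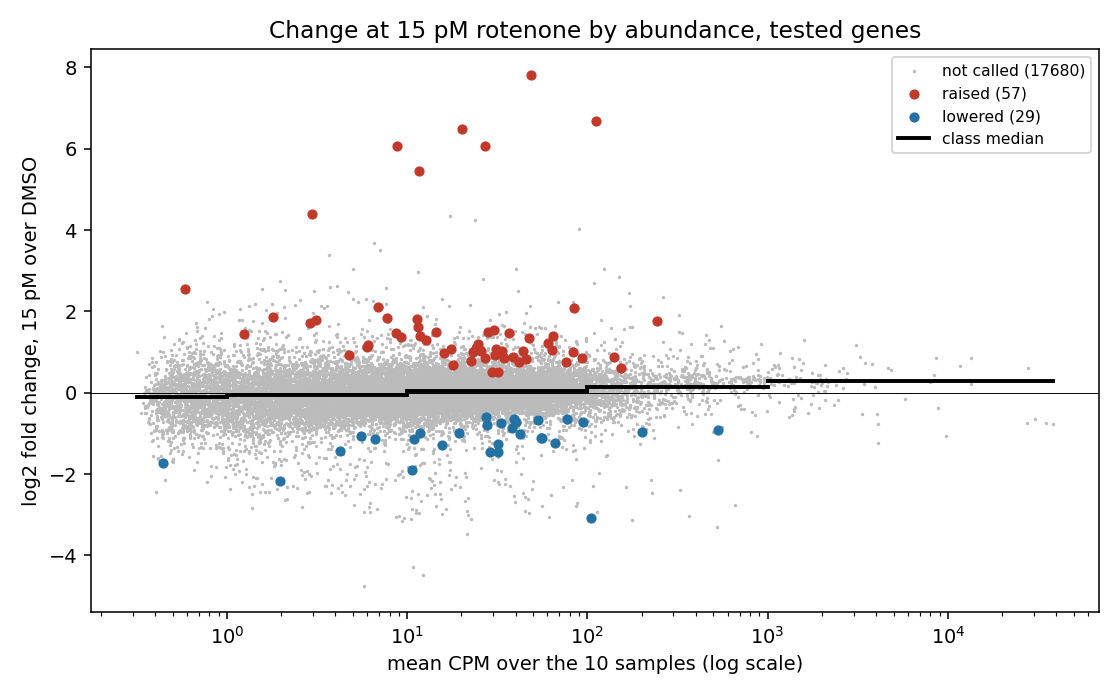
Log2 fold change (15 pM over DMSO) of the 17766 tested genes against mean CPM over the 10 samples (log axis), with the 57 raised and 29 lowered genes in colour and the median of each abundance class as a black line. The 7 raised genes over 4 lie far above most tested genes, and the class medians go up with abundance. Called or not, 10 tested genes were higher and 3 were lower by over 4. By edgeR 0 of the 119 genes over 1000 CPM were called, against 0.484% of all tested genes. DESeq2 called 4 of these genes and limma-voom 6. With classes formed on the DMSO level the medians do not rise steadily.

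Nfu_g_1_007705 had the smallest p of all genes and was raised. Its level was 35.6, 11.4, 14.5, 27.8 and 24.6 CPM in 15 pM replicates 1 to 5, against 0.330, 0.462, 0.685, 0.575 and 0.517 CPM in DMSO replicates 1 to 5. Every 15 pM sample lay far above every DMSO sample, and the spread at 15 pM was 3.12 times from lowest to highest. These levels rest on 284 to 941 counts at 15 pM and 9 to 17 counts in DMSO. On the log2 scale the increase was 5.46 ± 0.38 (SE, edgeR quasi-likelihood test, adjusted p = 0.000262), and it also passed the test against 1.5 fold (glmTreat, adjusted p = 0.000290). Here and below, standard errors (SE) were not taken from the fit. Each is the size of the log2 fold change divided by the square root of the F statistic of that test. The call of Nfu_g_1_007705 held in all 20 alternatives, with adjusted p from 5.66e-45 to 0.0485.

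The raised gene that added the most CPM was Nfu_g_1_020423. Its level was 498, 398, 464, 374 and 144 CPM in 15 pM replicates 1 to 5, against 130, 120, 101, 114 and 91.0 CPM in DMSO replicates 1 to 5. The groups did not overlap, but 15 pM replicate 5 stood only just above the highest DMSO sample, apart from the other 15 pM samples. The group means were 375.6 ± 138.9 CPM at 15 pM and 111 ± 15.5 CPM in DMSO (SD, n = 5 each), and on the log2 scale the increase was 1.76 ± 0.29 (SE; edgeR, adjusted p = 0.0365). The call was lost in 10 of 20 alternatives, among them each fit without a DMSO sample or without 15 pM replicate 1, 2 or 3 (adjusted p 2.25e-06 to 0.154 over all alternatives).

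Nfu_g_1_020815 had the smallest p among the lowered genes and the largest decrease of any called gene. Its level was 16.5, 22.7, 18.9, 18.1 and 35.6 CPM in 15 pM replicates 1 to 5, against 138, 161, 321, 152 and 170 CPM in DMSO replicates 1 to 5. The highest 15 pM sample lay well below the lowest DMSO sample, and DMSO replicate 3 was far above the other solvent samples. On the log2 scale the change was -3.08 ± 0.30 (SE; edgeR, adjusted p = 0.00535), and the decrease was larger than 1.5 fold by glmTreat (adjusted p = 0.00969). The call held with each sample left out in turn.

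The lowered gene that lost the most CPM was Nfu_g_1_020588. Its level was 432, 269, 372, 365 and 393 CPM in 15 pM replicates 1 to 5, against 644, 583, 735, 719 and 804 CPM in DMSO replicates 1 to 5. Both groups were tight and did not overlap. The means were 366 ± 60.4 CPM at 15 pM and 697 ± 85.4 CPM in DMSO (SD, n = 5 each), and on the log2 scale the change was -0.93 ± 0.16 (SE; edgeR, adjusted p = 0.0417). The call was lost in 10 of 20 alternatives, with adjusted p from 9.79e-07 to 0.169 over all of them, and each of the 5 fits without a DMSO sample was among these.

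**Figure D2:**
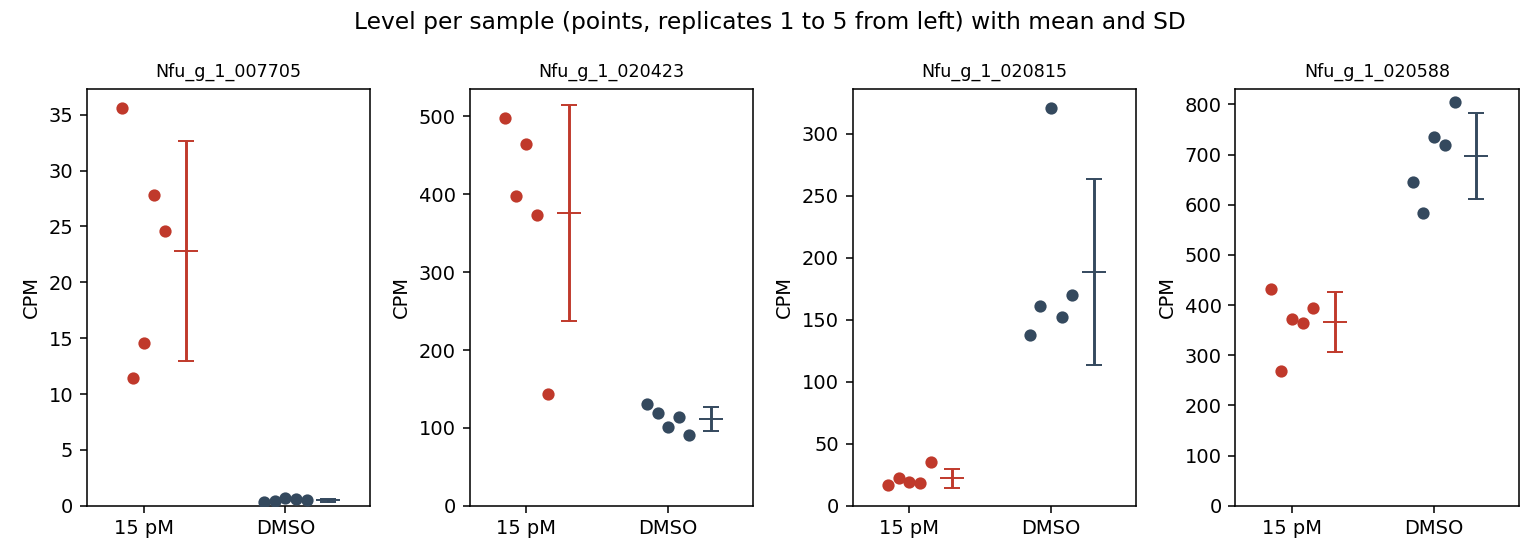
CPM in each sample (points, replicates 1 to 5 from left to right within a group) of 4 called genes, 15 pM on the left and DMSO on the right of each panel, with the mean and SD beside them. The groups do not overlap in any panel, and 15 pM replicate 5 of Nfu_g_1_020423 (144 CPM) comes closest to the DMSO samples.

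The 7 genes raised by over 4 on the log2 scale had few reads in solvent skin and far higher mean levels at 15 pM. Their mean levels were 5.68 to 222 CPM at 15 pM and 0.263 to 2.17 CPM in DMSO. None of them was absent in solvent skin as a group, and their DMSO samples held 0 to 109 counts, against 13 to 7133 counts at 15 pM. How high they went differed between 15 pM samples. 15 pM replicate 2 had the lowest level of all 5 samples for each of the 7 genes, and 15 pM replicate 1 had the highest for 6 of them. For the gene with the smallest of these 7 fold changes, 15 pM replicate 2 had 0.522 CPM, barely above the highest DMSO sample (0.483 CPM). The 15 pM samples of that gene spanned 27.6 times from lowest to highest. The gene with the largest fold change reached 264 CPM in 15 pM replicate 1 and 8.06 CPM in 15 pM replicate 2, while its DMSO samples lay between 0.110 and 0.882 CPM. Its log2 fold change of 7.81 had a standard error of 1.06 (edgeR, adjusted p = 0.0178). The test against 1.5 fold passed only for the 2 of these 7 genes with standard errors under 0.5.

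Several of these genes stood close together in the count table. Of the 7 genes, 4 lay within 9 consecutive lines of the table, beginning with Nfu_g_1_007705, and another 2 lay on adjacent lines elsewhere. No source used here says whether the order of the table follows the genome. Within 20 lines of Nfu_g_1_007705 there were 31 tested genes, and these 4 were the only ones called. A gene 2 lines away was higher by 4.01 on the log2 scale (169 CPM at 15 pM, 10.47 CPM in DMSO) without overlap of the samples, but did not pass the threshold (standard error 0.75, adjusted p = 0.0504). The line after it had 1035 CPM at 15 pM and 774 CPM in DMSO, higher by 0.42 ± 0.42 (SE) on the log2 scale, and was not called. The genes 9 and 10 lines after Nfu_g_1_007705 were higher by 1.20 ± 0.44 and 0.90 ± 0.46 (SE), and were not called either. None of the tested genes listed in the 20 lines before Nfu_g_1_007705 was called, and their log2 fold changes lay between -0.66 and 0.68. No sequence was examined, so it is not known whether genes of this stretch share reads. No source used here says how reads that fit several genes were counted, which leaves the values of single genes uncertain to that extent. Among all 86 called genes, 8 had another called gene within 5 lines. These include the 4 called genes of this stretch and the 2 on adjacent lines elsewhere, and no test was made of this number.

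**Figure D3:**
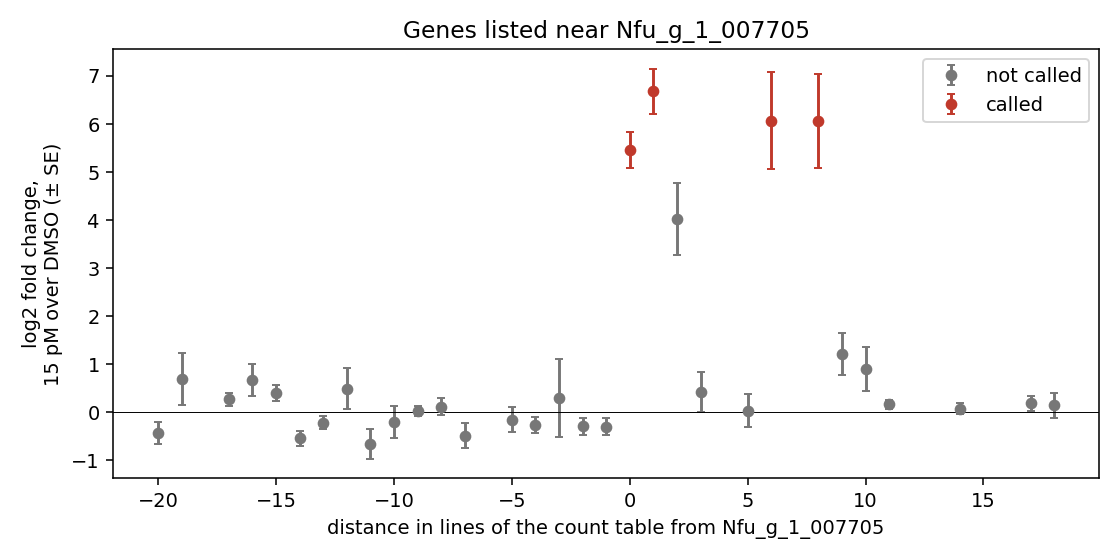
Log2 fold change (15 pM over DMSO) with its standard error for tested genes within 20 lines of Nfu_g_1_007705 in the count table, against their distance in lines. Standard errors were computed from the F statistic. The 4 called genes lie at offsets 0, 1, 6 and 8, and the gene at offset 2 misses the threshold. The genes before the stretch lie between -0.66 and 0.68, and those at offsets 9 and 10 lie at 1.20 and 0.90, not called.

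The called differences were present in every 15 pM sample, for some genes by a small margin. For each of the 86 called genes, all 15 pM samples lay on one side of all DMSO samples. A raised gene stood only 0.17 above the DMSO mean on the log2 scale in 15 pM replicate 4, with DMSO replicate 3 at 0.11. Over all tested genes this held for 1119 (6.3%), 535 with 15 pM above DMSO (3.01%) and 584 with 15 pM below (3.29%). Over the 57 raised genes, the median log2 distance from the DMSO mean was 1.15, 1.08, 1.26, 1.28 and 0.98 in 15 pM replicates 1 to 5, and -0.23 to 0.08 in the DMSO samples. Over the 29 lowered genes it was -0.96, -1.17, -0.91, -1.26 and -0.96 in 15 pM replicates 1 to 5, and -0.09 to 0.04 in the DMSO samples. Every 15 pM sample showed both sets. The separation of the groups and these medians describe genes that were picked by the same contrast, which favours both.

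Among the raised genes, the weakest and strongest responders were not evenly divided among the 15 pM samples. Of the 57 raised genes, 21 had their lowest 15 pM level in replicate 2 and 16 in replicate 5, whereas 19 had their highest in replicate 4 and 14 in replicate 1. Of the 29 lowered genes, 7, 7, 2, 9 and 4 had their lowest 15 pM level in replicates 1 to 5, and 7, 4, 6, 4 and 8 their highest. Over all tested genes, replicate 4 was the 15 pM sample farthest from its group median for 44.9%. No test was made of these numbers. Among the DMSO samples, replicate 5 had the lowest median over the raised genes.

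**Figure D4:**
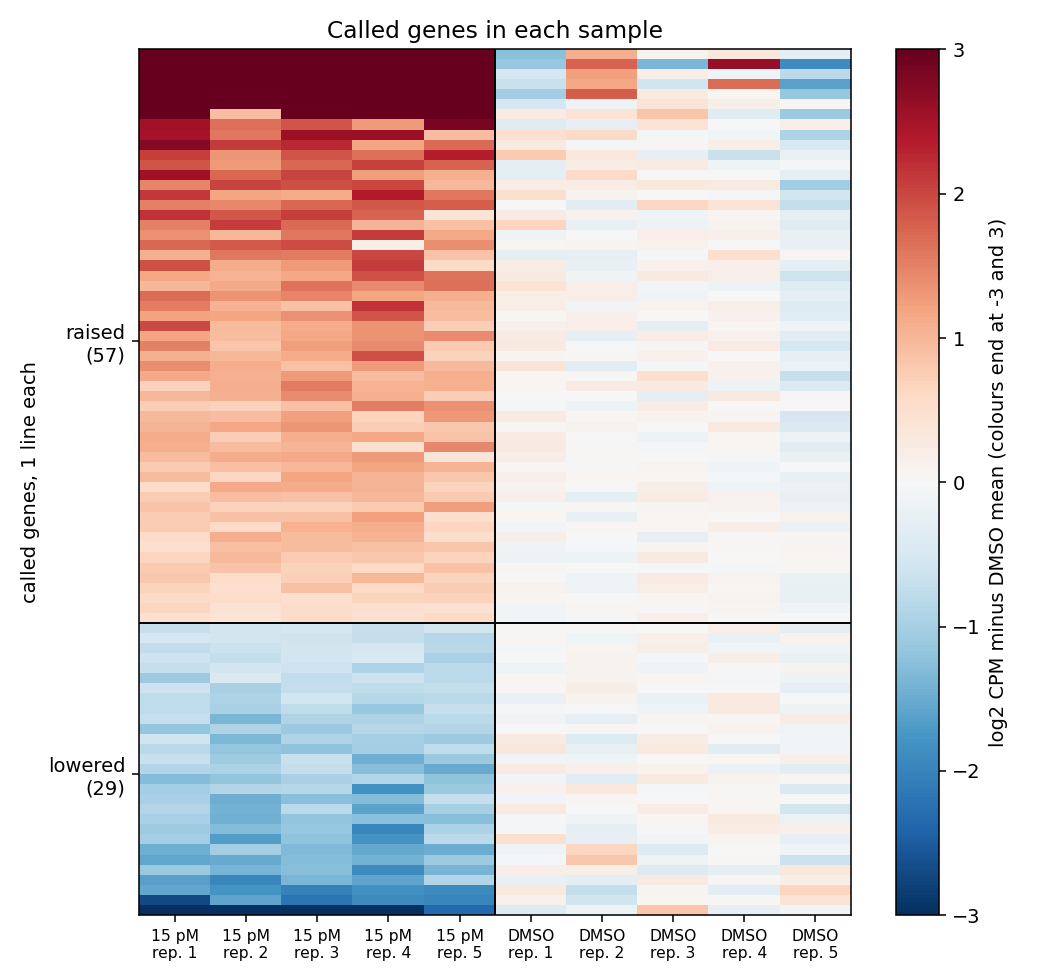
Log2 CPM minus the mean of the DMSO samples for the 57 raised genes (upper block) and 29 lowered genes (lower block), one line per gene, in the 5 samples at 15 pM (left) and the 5 in DMSO (right). Colours end at -3 and 3, and all 15 pM samples show both blocks.

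Most calls fell between 10 and 100 CPM, the largest class, and the share called was about as high from 100 to 1000 CPM. Genes between 10 and 100 CPM made up 47.9% of those tested and held 60 of the 86 calls, 39 raised and 21 lowered (0.704% of the class). Between 100 and 1000 CPM 7 of 1039 genes were called (0.674%), between 1 and 10 CPM 17 of 6676 (0.255%), and under 1 CPM 2 of 1414 (0.141%). Among the 119 genes over 1000 CPM edgeR called 0, with 12 (10.1%) at an unadjusted p under 0.05, while DESeq2 called 4 and limma-voom 6. Over all tested genes edgeR called 0.484% and gave 17.4% an unadjusted p under 0.05. A class of 119 genes is too small to tell 0 calls from the share of 0.484%. The median standard error of the log2 fold change was 0.41 under 1 CPM, 0.27 from 1 to 10 CPM, 0.19 from 10 to 100 CPM, 0.20 from 100 to 1000 CPM and 0.22 over 1000 CPM.

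Read number is not a level per length, so the classes were also formed on RPKM, which divides CPM by gene length in kilobases and here uses each sample's own total. From 10 to 100 RPKM 47 of 4409 genes were called (1.07%), 33 raised and 14 lowered. Above 100 RPKM 1 of 457 genes was called up to 1000 RPKM and 0 of 91 beyond. The raised genes had a median level of 12.3 RPKM and the lowered ones of 8.95 RPKM, against 4.89 RPKM over all tested genes with a length. Raised genes were shorter than lowered ones in the median, at 1974 bases (57 genes) and 3368 bases (28 genes), with 2673 bases over the 17110 tested genes that had a length. Recovered lengths went down to 21 bases among the raised genes and 18 bases over all tested genes. The recovery was checked only on 3936 well-counted genes, so the shortest lengths and the RPKM resting on them are uncertain. By length class, calls were 0.549% of genes under 1000 bases, 0.660% from 1000 to 2000, 0.308% from 2000 to 4000 and 0.540% over 4000 bases. No test was made of these shares.

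With genes grouped by the level in solvent skin alone, 10 to 100 CPM held most calls, while the share called was highest under 1 CPM. Between 10 and 100 CPM in DMSO 31 genes were raised and 20 lowered, 0.598% of 8528. Of the 1426 genes under 1 CPM in DMSO 9 were raised and 1 was lowered (0.701%), and of the 6699 from 1 to 10 CPM 15 were raised and 4 lowered (0.284%). Between 100 and 1000 CPM in DMSO 2 were raised and 4 lowered, 0.595% of 1008. A class formed on the DMSO level uses samples of the contrast itself, which favours raised genes in low classes, so the counts are a description.

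The called genes together were a small part of the skin transcriptome. The 57 raised genes summed to 3039.6 ± 400.9 CPM at 15 pM and 1194.8 ± 93.2 CPM in DMSO (SD, n = 5 each). That was 0.304% and 0.119% of the library total after TMM scaling. The 29 lowered genes summed to 1092.6 ± 91.6 CPM at 15 pM and 2242.5 ± 142.9 CPM in DMSO, or 0.109% and 0.224% of that scaled total. Summed over genes, the raised set gained 1844.76 CPM and the lowered set fell by 1149.95 CPM.

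Genes with 0 counts throughout one group had few counts in the other. Of the genes with 0 counts in all 5 DMSO samples, the one with the most counts had 11 at 15 pM, summed over the 5 samples. Of those with 0 counts in all 5 samples at 15 pM, the one with the most had 15 in DMSO. A count of 0 over a group allows up to 3 counts, which is 0.0251 CPM at 15 pM and 0.0231 CPM in DMSO, and this covers counting error only. No gene at 0 throughout the DMSO group was detected in all 15 pM samples, and 6 genes at 0 throughout 15 pM had at least 1 count in each DMSO sample. Such genes lay below the filter of the main test, so differences of this size were not assessed there. The fit without a filter on low counts included them, and their values in it were not examined.

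The genes with the most reads varied strongly among the 15 pM samples, and edgeR called 0 of the top 20 (3 at an unadjusted p under 0.05, 1 called by DESeq2 and 1 by limma-voom). Over all tested genes edgeR called 0.484% and gave 17.4% an unadjusted p under 0.05. A set of 20 genes is too small to tell 0 calls from that share. Of the 20, 10 were higher and 10 lower at 15 pM, and the smallest adjusted p by edgeR was 0.153. The gene with the most reads had 10614, 47661, 47453, 1241 and 34721 CPM in 15 pM replicates 1 to 5, against 51173, 65424, 44912, 44916 and 35672 CPM in DMSO replicates 1 to 5. Replicates 2, 3 and 5 at 15 pM overlapped the DMSO range or nearly so, and replicates 1 and 4 lay far below it. The genes of ranks 2 and 5 were also lowest in 15 pM replicate 4, with 2083 and 1162 CPM, and highest at 15 pM in replicate 3, with 44464 and 34971 CPM. Their DMSO samples lay between 30190 and 60309 CPM and between 24205 and 47529 CPM. The gene ranked 18 had 42.0 CPM in 15 pM replicate 4, against 1166 to 4930 CPM in the other 15 pM samples and 2947 to 7226 CPM in DMSO.

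**Figure D5:**
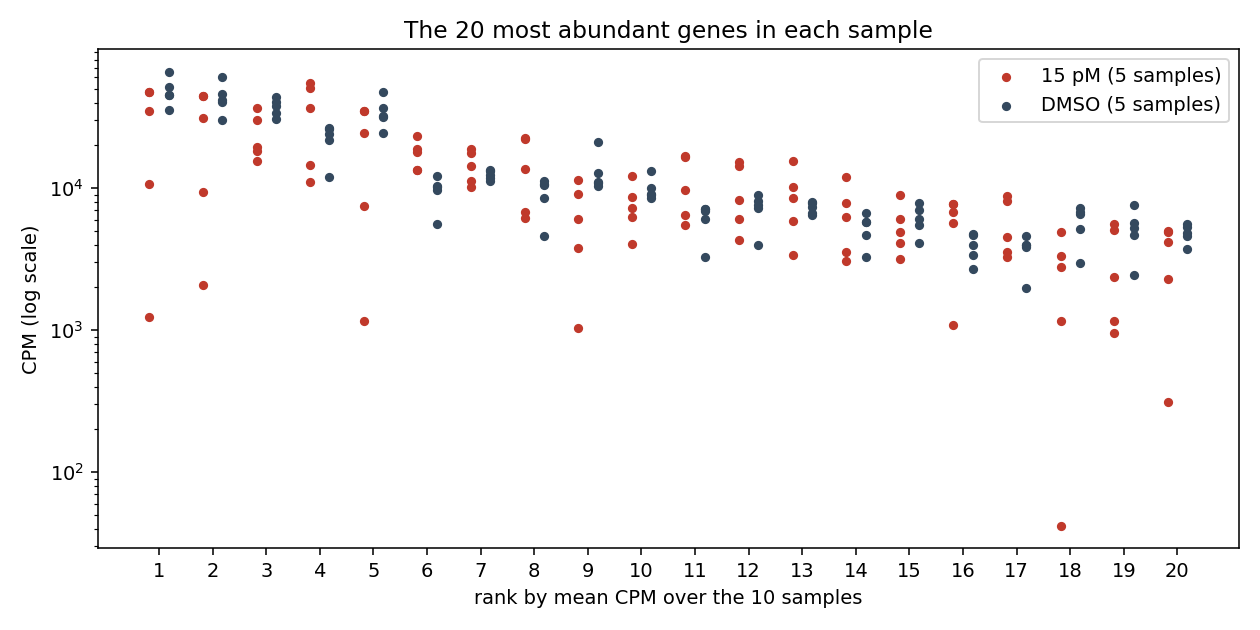
CPM (log axis) of the 20 genes with the most reads in each of the 5 samples at 15 pM (left points) and the 5 in DMSO (right points). For 19 of the 20 genes the 15 pM samples span a wider fold range than the DMSO samples.

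This wider spread at 15 pM ran through the transcriptome. The standard deviation of log2 CPM between samples had a median over genes of 0.44 at 15 pM and 0.22 in DMSO. Other measures differed less. The root mean square log2 distance between samples of a group averaged 0.95 at 15 pM and 0.76 in DMSO. The coefficient of variation that edgeR fits in common to all genes was 0.44 and 0.37. The standard deviation was the larger at 15 pM for 14726 of the 17766 tested genes, or 82.9%. Genes vary together between samples, so this was not tested. The share was 70.5% without 15 pM replicate 4, 66.4% without both 15 pM replicates 1 and 4, and 79.8% to 85.8% without any of the other samples but 15 pM replicate 5, which gave 75.3%. The difference was seen in every abundance class, from 68.7% of genes under 1 CPM to 95.0% of those over 1000 CPM. For 7975 genes (44.9%) the 15 pM sample farthest from the median of its group was replicate 4, and for 5065 (28.5%) it was replicate 5. In DMSO replicate 5 was the farthest for 6134 genes (34.5%). Of the called genes, 38 of the 57 raised and 17 of the 29 lowered genes had the larger standard deviation at 15 pM, and a small spread itself favours a call.

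With genes grouped by mean CPM over the 10 samples, those with many reads leaned upward at 15 pM and those with few reads downward. The median log2 fold change was -0.10 under 1 CPM, -0.06 from 1 to 10 CPM, 0.04 from 10 to 100 CPM, 0.14 from 100 to 1000 CPM and 0.28 over 1000 CPM. With classes formed on the DMSO level, the medians were 0.02, -0.05, 0.02, 0.08 and 0.24 from the lowest class to the highest. Those classes had no downward median under 1 CPM and no steady rise. Both groupings use samples of the contrast itself, so the medians are a description. In the classes over the 10 samples, that from 10 to 100 CPM turned to -0.02 by limma-voom and to -0.0032 without 15 pM replicate 4. Without 15 pM replicates 1 and 4 it was -0.0063. The other classes over the 10 samples kept their sign in every alternative fit. Under 1 CPM the median was -0.19 without 15 pM replicate 2, -0.07 without 15 pM replicate 5 and -0.05 without DMSO replicate 5. From 1 to 10 CPM it was -0.10 without 15 pM replicate 2 and -0.03 without DMSO replicate 5, and from 100 to 1000 CPM it was 0.09 without 15 pM replicate 5. In the class over 1000 CPM 75.6% of the 119 genes were higher at 15 pM. Samples differed in this, the class median lying -0.01, 0.08, 0.27, -0.11 and 0.83 from the DMSO mean in 15 pM replicates 1 to 5, and between -0.10 and 0.07 in the DMSO samples. Replicates 3 and 5 were well above all DMSO samples, and replicates 1 and 4 were within or just under their range. Without 15 pM replicate 5 the median of the class was 0.09, and without 15 pM replicates 1 and 4 it was 0.44.

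The share of all counts taken by these 119 genes varied more at 15 pM. It was 34.7%, 44.6%, 51.2%, 28.4% and 49.996% in 15 pM replicates 1 to 5, against 46.5%, 48.3%, 44.3%, 46.5% and 39.4% in DMSO replicates 1 to 5. The means were 41.8 ± 9.89% at 15 pM and 44.99 ± 3.43% in DMSO (SD, n = 5 each). By the exact two-sided permutation test of the means, p was 0.516 (adjusted p = 0.684 over 9 properties), and the spread was not tested. The groups overlapped, and the low shares were those of 15 pM replicates 1 and 4, in which the gene with the most reads was also low. Depth moved along with this, since replicates 1 and 4 had the lowest totals at 15 pM, 22198762 and 21857670 counts, and its part in these values was not tested.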

How the data were processed

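Per the labels' protocols, skin RNA was made into libraries with the TruSeq RNA kit v2. This kit leaves strand unmarked, so sense and antisense reads of overlapping genes cannot be told apart. The submitters' processing notes name CASAVA 1.8.2, STAR 2.4.1d and featureCounts 1.4.6-p4. Build, annotation and counting options: not given in the sources used here. Raw counts and RPKM for 26739 genes were deposited by the authors. In the deposited RPKM, library totals were repeated down the lines of the table: for 3936 well-counted genes 100% gave a single gene length, within 1%, with such repeated totals and 0% with each sample's own. They were used only to recover gene lengths, from all 15 samples of the series (RPKM of at least 0.5 in a sample). The levels behind the RPKM classes come from the counts.

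Counts of the 10 samples were tested with edgeR 4.0.16 in R 4.3.3, after filterByExpr (minimum count 10, minimum total 15) and TMM scaling, with a mean per group, no covariates and Benjamini-Hochberg adjustment over all tested genes. The smallest chi-square per gene between any samples was 27.7, so no library was taken for a copy of another. Standard errors were the size of the log2 fold change divided by the square root of the quasi-likelihood F statistic. Steps were tested on simulated data. Alternatives were edgeR with upper-quartile scaling or with the size factors of DESeq2, no filter, 5 samples of at least 1 CPM as the filter, all 15 samples in the fit, DESeq2 1.42.0, limma 3.58.1 with voom and sample weights, the title numbers as blocks, leaving out the 20 genes with the most reads, and leaving out each sample. Leaving out 15 pM replicates 1 and 4 together, and all alternatives for the spread and the class medians, were chosen after seeing the data, as were the descriptions by length, by table line and of the 20 genes with the most reads. Identifiers given are, in each direction, the called gene with the smallest p and, among called genes without overlap, that with the largest CPM difference. The samples, rules and lists were chosen with earlier results of these data known. Replicates are numbered in order of registration. Marker lists for cell types and complex I subunits were not used, since 0 of the identifiers matched the 38438 genes of the RefSeq table.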

Additional observations from a re-analysis of the deposited data

Results flagged for a closer look

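In 7 of 36 groups of 5 values examined, 1 sample lay far from the other 4, where chance gives about 1 in 20; the values share samples and are not independent. Of the 7, 5 concerned sample properties or class medians of DMSO replicate 5. It had 21505 genes with at least 1 count, against 20966 to 21085 in the other DMSO samples, and 263 genes held the first 50% of its counts, against 136 to 170. Genes under 1 CPM held 0.130% of its counts, against 0.0892% to 0.0959% in the other DMSO samples. Its median log2 distance from the DMSO mean was 0.011 for genes from 1 to 10 CPM, against -0.019 to -0.013. For genes from 100 to 1000 CPM that distance was -0.11 in DMSO replicate 5, against 0.01 to 0.03 in the other DMSO samples. In the same class 15 pM replicate 5 had 0.26, while the other 15 pM samples had -0.01 to 0.04. Nfu_g_1_020815 had 321 CPM in DMSO replicate 3, against 138 to 170 CPM in the other DMSO samples.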

How the results depend on the processing

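The number of called genes moved with the test and the samples more than with the scaling. Without a filter on low counts 51 genes were called (35 raised, 16 lowered), in the fit of all 15 samples 320 (196 and 124), by DESeq2 962 (527 and 435) and by limma-voom 1696 (823 and 873). DESeq2 size factors gave 60 calls with 19 lowered genes. With both 15 pM replicates 1 and 4 left out it was 278 (209 and 69). Leaving out 1 sample gave 4 to 494 calls, 2 to 310 of them raised and 2 to 184 lowered, with 47.1% to 70.8% raised. Beyond 1.5 fold, 5 genes were called in the fit of all 15 samples, 13 by limma-voom, 5 without 15 pM replicates 1 and 4, and 2 to 8 with 1 sample left out. Of the 86 genes, 81 were also called in the fit of all 15 samples, 86 by DESeq2, 85 by limma-voom and 86 without 15 pM replicate 4. Other fits shared fewer, also where many genes were called. The overlap was 66 of 105 calls without 15 pM replicate 5 and 69 of 278 without 15 pM replicates 1 and 4. It was 11 without 15 pM replicate 3 and 4 without DMSO replicate 4. The groups share the title numbers 1 to 5. With these as a replicate block 2 genes were called, 2 raised and 0 lowered, and 0 beyond 1.5 fold (2264 genes at an unadjusted p under 0.05, 1197 of them lower), and Nfu_g_1_020815 had an adjusted p of 0.0736 by edgeR, its only lost call in 20 alternatives. The numbers do not pair the samples by any label, and the deviations of same-numbered samples correlated at -0.205 to 0.304, with 2 of 5 samples closest to their own number. By the level in DMSO the class under 1 CPM held 10 calls in place of 2, and by RPKM the classes under 1, from 1 to 10 and from 100 to 1000 held 5, 32 and 1. Of 90 differences in sample properties with 1 sample left out, the smallest adjusted p was 0.310 by exact permutation tests. The cause of these differences between settings was not tested. Estimates were least precise for genes under 1 CPM, where the median standard error was 0.41, and the part of depth in this was not tested.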
